A study of Mus musculus with 15 samples.

Results

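The change in gene expression from Day 12 to Day 15 was compared between optic tissue stimulated with Fgf and optic tissue stimulated with Wnt. For each gene, the log2 change in +Wnt tissue (Day 15 minus Day 12) was subtracted from the log2 change in +Fgf tissue, so a positive difference means that the gene rose more, or fell less, in +Fgf tissue. Members were all genes with at least 1 CPM (reads scaled to the size of the library, the deposited unit) in at least 3 of the 15 libraries, 13845 of 23244 gene entries. At the edge of this filter, Gm10416 was the last gene to enter and 4933412E12Rik the first to be left out, and the level that each reached in 3 libraries was 1.01 and 0.996 CPM. Of the 9399 entries left out, 4604 were listed at 0 in all 15 libraries. The comparison used 12 of the 15 libraries, 3 for each of Day 12 +Fgf, Day 15 +Fgf, Day 12 +Wnt and Day 15 +Wnt, which the study describes as biological replicates.

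All groups came from 1 mouse embryonic stem cell line, EB5 Rx::GFP+/-, in which GFP reports the eye field gene Rax (also called Rx). Each aggregate was started from 3000 dissociated cells (SFEBq, a floating culture of quickly reaggregated cells) and received 4% Matrigel, a basement membrane extract. The GFP+ epithelium was cut out at Day 10 and cultured on. The +Fgf groups then received 5 ng/ml bFgf together with 10% fetal bovine serum (FBS). The +Wnt groups received CHIR99201, an inhibitor of the kinase GSK3 that stabilises beta-catenin, at 3 uM for 24 hours and at 1 uM afterwards. Serum is listed for the +Fgf medium only, so the effects of bFgf and of serum cannot be told apart. In such bulk libraries, fewer cells of a type and less RNA per cell cannot be told apart either. The labels call the +Fgf tissue neural retina (NR) and the +Wnt tissue retinal pigmented epithelium (RPE), and the study states that each is in the majority, but not wholly, of that identity. Six6, a homeobox factor of the eye field and neural retina, stood at 216 to 335 CPM in +Fgf and at 1.12 to 31.8 CPM in +Wnt libraries. Mitf, the master factor of pigment cells, stood at 119 to 191 CPM in +Wnt tissue. Rpe65 and Best1, which mark mature RPE, did not exceed 0.0707 and 0.440 CPM in the 12 libraries.

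Neural retina and RPE arise from the same optic epithelium, in which Fgf signalling favours the retina and Wnt/beta-catenin signalling favours the RPE. The retina keeps dividing and releases its first neurons through proneural bHLH factors, which are held in check by Notch signalling. The RPE stays an epithelial monolayer that leaves the cell cycle, makes melanin and rests on a basement membrane of collagens and laminins.

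Recovered reads per library ranged from 12556998 to 16175450 over the 12 libraries (median 14747389), and 1 read was worth between 0.0620 and 0.0746 CPM. No library repeated another, since counts of replicates differed by 2.72 to 8.75 times the sampling noise (chi-square per degree of freedom). The largest of these values belonged to Day 12 +Fgf replicates 2 and 3, and results that rest on that group are followed below without each library. By the RNA integrity numbers (RIN) that the study lists, the Day 15 +Fgf libraries were the lowest of the 12, so that RIN moves with day in +Fgf tissue. The part of RNA integrity in the results was not tested, but a fit with RIN as a covariate was made for all genes.

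Between the tissues, the change from Day 12 to Day 15 differed for 6636 of 13845 genes, or 47.9% (limma on log2(CPM + 0.3), Benjamini-Hochberg adjusted p under 0.05, two-sided). A positive difference was found for 3736 genes (27%) and a negative difference for 2900 (20.9%). Differences of 1 or more in size (log2) were called for 1971 genes (14.2%), and here negative differences prevailed, 1374 (9.92%) against 597 (4.31%). With RIN as a covariate, 3842 genes passed, 3700 of them among the 6636. The median difference over all 13845 genes was 0.06.

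Most of these differences were found in genes that changed in 1 tissue, or in both in the same direction. In +Fgf tissue 3759 genes rose (27.2%) and 4140 fell (29.9%), and in +Wnt tissue 4504 rose (32.5%) and 4913 fell (35.5%). Both tissues rose for 2355 genes, of which 814 differed in size, and both fell for 2578 genes, of which 1186 differed, 1012 of them with the deeper fall in +Wnt tissue. A further 1290 differences came from genes that fell in +Wnt tissue and did not pass the test in +Fgf tissue, and 999 from genes that rose in +Wnt tissue and did not pass in +Fgf tissue. The reverse cases, a change called in +Fgf tissue alone, gave 616 differences for rising and 580 for falling genes. Genes are not independent replicates, but as a description the changes in the 2 tissues had a Pearson correlation of 0.430 over the 13845 genes and the same sign for 69.4% of them.

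Opposite movement was the smaller class. A call in each tissue and in the difference, with opposite signs, was made for 1062 genes, which is 7.67% of those tested and 17.7% of the 5995 that changed in both tissues. Of these, 412 rose in +Fgf and fell in +Wnt tissue (2.98%), and 650 fell in +Fgf and rose in +Wnt tissue (4.69%). The libraries of Day 12 and Day 15 did not overlap in either tissue for 964 of the 1062. Over all 13845 genes, whatever their direction, this held for 6818 (49.2%). The 1062 were chosen by calls in both tissues, which favours such separation, so it is no further evidence for them. Movements were mostly small among the 412, where the smaller of the 2 changes had a median of 0.26 on the log2 scale, and larger among the 650, with a median of 0.54. Changes of at least 1 in each tissue were found for 11 genes in the first direction (0.0795%) and for 115 in the second (0.831%), 126 in all (0.91%). With RIN as a covariate, the counts were 157 and 333, with 13 and 87 genes of at least 1 in each tissue.

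**Figure D1:**
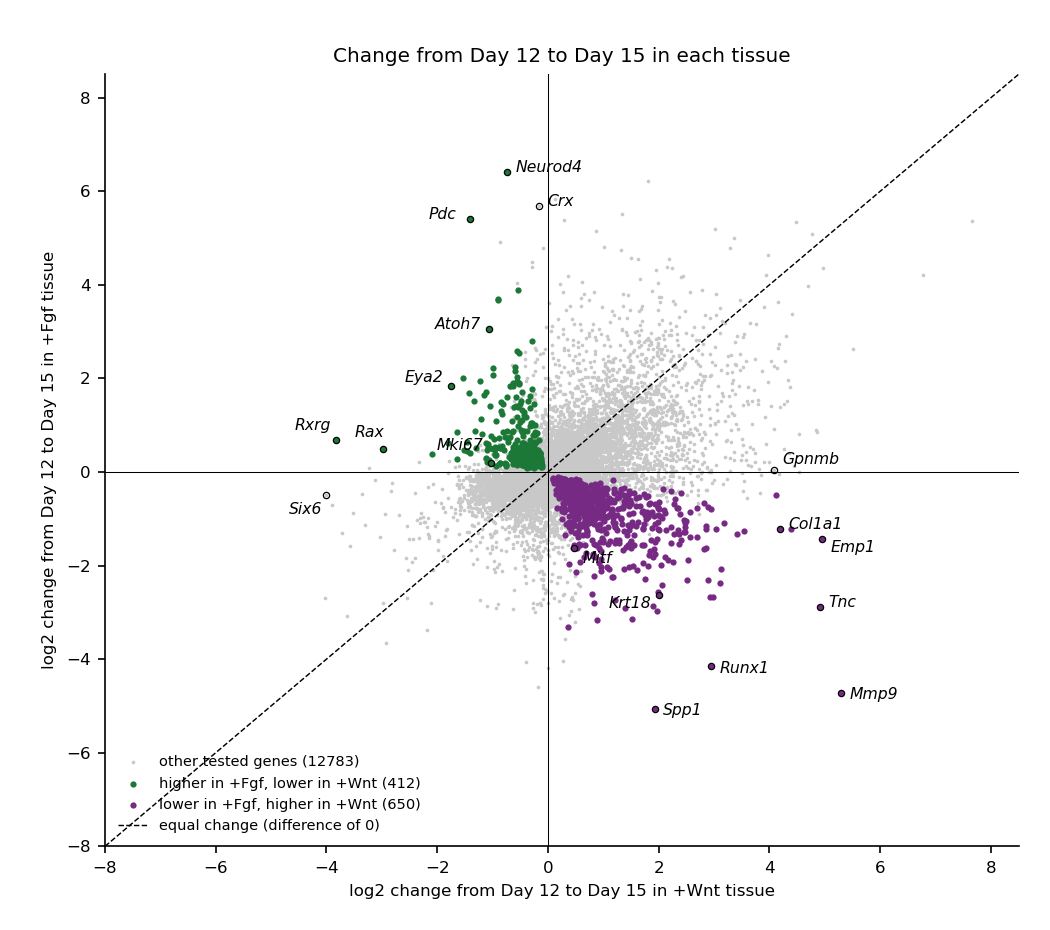
Log2 change from Day 12 to Day 15 in +Wnt tissue (x axis) and in +Fgf tissue (y axis), 1 point for each of 13845 genes. Green points are the 412 genes that rose in +Fgf and fell in +Wnt tissue, purple points the 650 with the reverse, and the dashed line marks equal change. The purple points reach much farther from the origin than most green points.

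The order of the tissues on each day is described next. These genes were chosen by opposite changes, so the gap between the tissues had to shift, and part of the exchange follows from the choice. No such counts were made over all genes, so the counts are a description only. Among the 650 genes that fell in +Fgf and rose in +Wnt tissue, 369 were higher in +Fgf tissue at Day 12 and 512 were lower in it at Day 15. For 231 genes both held (each day's difference between tissues past the same threshold), so that their order was exchanged. Among the 115 with at least 1 in each tissue, the order was exchanged for 73, with 93 higher in +Fgf tissue at Day 12 and 95 lower at Day 15. Among the 412 of the other direction, 147 were lower in +Fgf tissue at Day 12, 381 were higher at Day 15 and 116 exchanged their order.

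**Figure D2:**
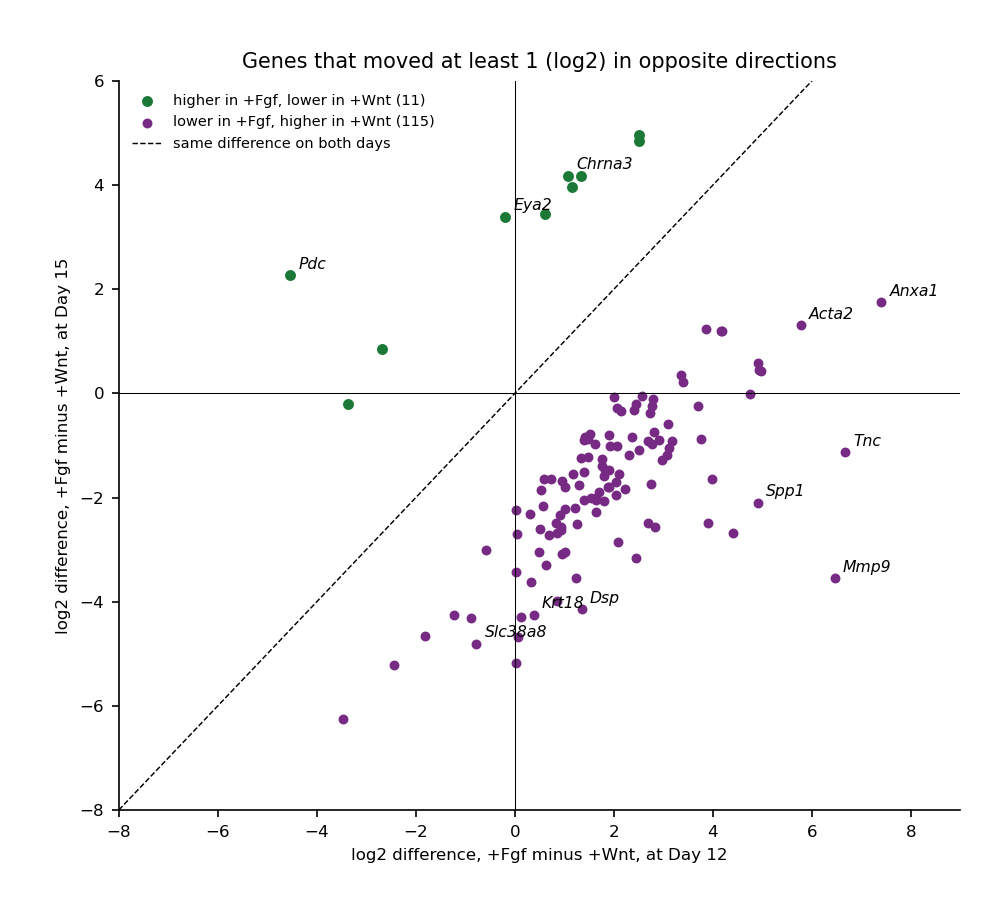
Log2 difference between +Fgf and +Wnt tissue at Day 12 (x axis) and at Day 15 (y axis) for the 126 genes that moved by at least 1 in opposite directions. Vertical distance from the dashed line is the difference in change. Most of the 115 purple points lie to the right of 0 and below 0, which is the exchange of order found for 73 of them.

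Genes are first given by the largest opposite movements, 12 in one direction and 11 in the other, ranked by the smaller of their 2 changes among genes with at least 10 CPM in a group and no overlap between days. Those that rose in +Fgf and fell in +Wnt tissue were Eya2, Chrna3, Pdc, Chrnb4, Neurog1, D930028M14Rik, Tshr, Atoh7, Myb, 3632451O06Rik, Tox and Nr2e1. Those that fell in +Fgf and rose in +Wnt tissue were Mmp9, Runx1, Tnc, Anxa1, Dsp, Col3a1, Fbln2, S100a6, Krt18, Slc38a8 and Krt8. The first set includes the proneural factors Neurog1 and Atoh7, and the second the matrix genes Mmp9, Tnc, Col3a1 and Fbln2. Coordinates here and below are those of GENCODE vM21 on GRCm38 (mm10), and 113 of the 114 genes chosen for naming were found in it.

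Both sets hold a pair of neighbouring genes whose products work together, and their promoters are shown because the members of each pair moved in the same direction. Chrna3 and Chrnb4 encode the alpha3 and beta4 subunits of a neuronal nicotinic acetylcholine receptor, and 21682 bases lie between their promoter windows. Krt8 and Krt18 encode the keratins that pair into the filaments of simple epithelia, and 23373 bases lie between their windows. The windows of Crx, the homeobox factor of photoreceptor precursors, and of Emp1, an epithelial membrane protein, are shown as genes with differences over 5 in size and opposite sign. Each window runs from 250 bases before to 50 bases after a gene start of RefSeq (GRCm38.p6), 300 bases, written 5′ to 3′ on the gene's strand. Capitals mark matches, on either strand, to 4 of 7 searched motifs: the E-box CAGCTG of proneural bHLH factors, TAATCC (OTX/CRX factors), TGANTCA (AP-1) and CTTTGA (TCF/LEF).
Chrna3 (chr9:55026513-55026812, minus strand): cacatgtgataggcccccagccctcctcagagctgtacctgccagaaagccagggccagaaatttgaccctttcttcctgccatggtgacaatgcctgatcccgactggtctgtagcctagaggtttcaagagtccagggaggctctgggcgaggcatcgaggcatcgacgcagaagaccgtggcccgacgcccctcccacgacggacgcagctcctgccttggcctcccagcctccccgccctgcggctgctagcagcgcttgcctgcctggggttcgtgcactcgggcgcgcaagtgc
Chrnb4 (chr9:55048495-55048794, minus strand): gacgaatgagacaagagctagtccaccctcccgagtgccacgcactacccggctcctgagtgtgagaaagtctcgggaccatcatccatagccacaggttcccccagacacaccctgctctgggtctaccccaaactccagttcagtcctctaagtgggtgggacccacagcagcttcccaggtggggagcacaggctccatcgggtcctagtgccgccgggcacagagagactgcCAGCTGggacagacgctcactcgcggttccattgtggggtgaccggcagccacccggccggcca
Krt8 (chr15:102004293-102004592, minus strand): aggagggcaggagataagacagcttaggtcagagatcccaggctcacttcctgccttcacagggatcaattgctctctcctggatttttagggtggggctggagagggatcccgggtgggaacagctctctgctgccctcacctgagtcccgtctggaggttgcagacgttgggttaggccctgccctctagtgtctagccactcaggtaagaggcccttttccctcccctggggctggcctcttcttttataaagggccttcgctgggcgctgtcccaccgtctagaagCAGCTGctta
Krt18 (chr15:102027966-102028265, plus strand): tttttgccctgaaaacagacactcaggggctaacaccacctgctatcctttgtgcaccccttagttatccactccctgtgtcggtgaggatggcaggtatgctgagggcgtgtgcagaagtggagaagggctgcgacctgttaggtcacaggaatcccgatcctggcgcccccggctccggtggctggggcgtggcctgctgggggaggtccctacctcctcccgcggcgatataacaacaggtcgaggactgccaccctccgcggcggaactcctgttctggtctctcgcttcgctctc
Crx (chr7:15879906-15880205, minus strand): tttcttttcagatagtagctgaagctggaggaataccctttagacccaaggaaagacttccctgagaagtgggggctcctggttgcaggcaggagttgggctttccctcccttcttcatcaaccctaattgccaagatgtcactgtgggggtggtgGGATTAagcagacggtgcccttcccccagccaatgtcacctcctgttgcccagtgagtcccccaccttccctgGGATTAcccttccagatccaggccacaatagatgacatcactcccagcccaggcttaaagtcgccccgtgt
Emp1 (chr6:135362681-135362980, plus strand, the first of 2 starts listed): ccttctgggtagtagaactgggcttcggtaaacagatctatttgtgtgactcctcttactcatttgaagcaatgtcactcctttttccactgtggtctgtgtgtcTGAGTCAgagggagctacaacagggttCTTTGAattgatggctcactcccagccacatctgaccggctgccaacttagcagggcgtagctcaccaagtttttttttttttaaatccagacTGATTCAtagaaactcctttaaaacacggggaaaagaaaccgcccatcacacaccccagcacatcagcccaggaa

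Chrnb4 and Krt8 each held 1 CAGCTG, which 16.3% of all 32851 promoter windows in the table hold. Crx held GGATTA, the reverse complement of TAATCC, at 2 places (7.06% of windows hold this motif). Emp1 held TGANTCA at 2 places (7.81%) and CTTTGA at 1 (16.0%). Chrna3 and Krt18 held none of the 7 motifs, which also included CACGTG (7.15%), TCATGTG (3.77%) and GGAATG (14.7%). A match is a description of these letters and no evidence of a bound factor.

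Eya2 (chr2:165595032-165771727, plus strand), a phosphatase and coactivator of the sine oculis homeobox factors of eye development, was the leading gene of the first set. In +Fgf tissue it stood at 22.0, 22.1 and 19.0 CPM at Day 12 and at 81.3, 68.9 and 78.2 CPM at Day 15. In +Wnt tissue it stood at 24.7, 25.0 and 23.0 CPM and then at 6.89, 7.98 and 6.10 CPM. The +Wnt libraries were slightly the higher at Day 12 and far the lower at Day 15, with no overlap on either day. Its log2 changes were 1.84 ± 0.10 in +Fgf and -1.76 ± 0.10 in +Wnt tissue (SE), and the difference was 3.60 ± 0.14 (SE, adjusted p = 2.52e-11).

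The receptor subunit Chrna3 rose in +Fgf tissue from 54.1, 42.2 and 57.7 to 180.1, 158 and 155 CPM. It fell in +Wnt tissue from 21.4, 23.3 and 27.5 to 8.87, 10.9 and 6.87 CPM. Its partner Chrnb4 followed the same course at a lower level, from 21.9, 15.1 and 20.1 to 58.5, 51.8 and 52.8 CPM in +Fgf tissue and from 7.30, 6.96 and 7.68 to 2.42, 2.98 and 2.81 CPM in +Wnt tissue. Neither gene had overlapping days in either tissue, and both were higher in +Fgf tissue on both days. The differences were 3.11 ± 0.22 (SE, adjusted p = 1.8e-08) for Chrna3 and 2.84 ± 0.19 (SE, adjusted p = 8.81e-09) for Chrnb4. Chrna5, which lies in the same cluster and encodes a further subunit, was named after its value was seen, and its difference was 2.19.

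Proneural bHLH factors, which commit progenitors to a neuronal fate, were in this set as well. Atoh7 (chr10:63099651-63101279, plus strand), required for retinal ganglion cells, rose from 11.0, 10.9 and 13.9 to 121, 93.0 and 92.7 CPM in +Fgf tissue. In +Wnt tissue it was near 0 throughout, at 0.440, 0.418 and 0.530 CPM and then at 0.0620, 0 and 0.140 CPM. At Day 15 no +Wnt library held more than 3 reads of Atoh7, so its fall there was at least 2.24-fold against that floor (counting error only), and its difference was 4.13 ± 0.44 (SE, adjusted p = 1.08e-06). Neurog1 moved between low levels, from 0.444, 1.66 and 0.383 to 2.80, 3.02 and 5.16 CPM in +Fgf and from 10.3, 10.4 and 9.47 to 3.04, 4.47 and 5.05 CPM in +Wnt tissue. It started higher in +Wnt tissue and the tissues overlapped at Day 15, with a difference of 3.17 ± 0.45 (SE, adjusted p = 2.62e-05).

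Pdc (chr1:150319417-150333906, plus strand) encodes phosducin, which binds the G protein subunits of photoreceptors. It was at 0, 0.0637 and 0 CPM in Day 12 +Fgf tissue and at 13.6, 11.7 and 14.6 CPM in Day 15 +Fgf tissue. In +Wnt tissue it went from 7.61, 7.03 and 6.69 to 3.10, 2.09 and 2.38 CPM. No Day 12 +Fgf library held more than 1 read of Pdc, and by Day 15 each +Fgf library was above each +Wnt library. Against a floor of 3 reads at Day 12, its rise in +Fgf tissue was at least 69.5-fold, and its fitted difference was 6.81 ± 0.28 (SE, adjusted p = 5.49e-11). The fitted value of such a gene depends on the pseudocount and reached 10.24 in edgeR.

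A further 3 genes of the first set encode transcription factors. Nr2e1 (Tlx), an orphan nuclear receptor of retinal and neural progenitors, rose from 42.9, 57.4 and 44.2 to 94.2, 85.6 and 85.4 CPM in +Fgf and fell from 57.3, 36.3 and 42.9 to 14.4, 17.3 and 22.2 CPM in +Wnt tissue. The tissues overlapped at Day 12 and not at Day 15 (difference 2.20, adjusted p = 4.36e-06). Myb, a factor of dividing progenitors, rose from 75.8, 75.3 and 74.8 to 213, 197 and 193 CPM and fell from 12.6, 13.0 and 13.2 to 5.83, 6.56 and 6.10 CPM, with tight replicates in each group (difference 2.45, adjusted p = 2.52e-11). Tox, an HMG box factor, rose from 45.2, 42.6 and 47.3 to 102, 92 and 93.4 CPM and fell from 14.0, 11.7 and 11.4 to 5.58, 6.71 and 6.73 CPM. Its difference was 2.02, the smallest of the 12.

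The last of the 12 are a receptor gene and a pair of genes known by clone names. Tshr, the thyrotropin receptor, rose from 10.9, 5.54 and 9.33 to 18.1, 17.9 and 19.9 CPM in +Fgf tissue and was at 0.944, 1.18 and 1.59 and then at 0.682, 0.149 and 0.351 CPM in +Wnt tissue. The +Wnt values are low on both days, and the opposite call was lost with RIN as a covariate. 3632451O06Rik rose from 15.0, 18.9 and 11.9 to 61.4, 57.8 and 73.2 CPM in +Fgf tissue and fell from 139.7, 141 and 162 to 71.8, 75.3 and 73.9 CPM in +Wnt tissue, which brought the tissues close to each other at Day 15. D930028M14Rik rose from 24.4, 15.5 and 21.1 to 68.7, 58.8 and 63.2 CPM and fell from 8.87, 6.33 and 12.3 to 3.85, 4.85 and 2.95 CPM. The differences of these genes were 2.34, 3.06 and 2.81.

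**Figure D3:**
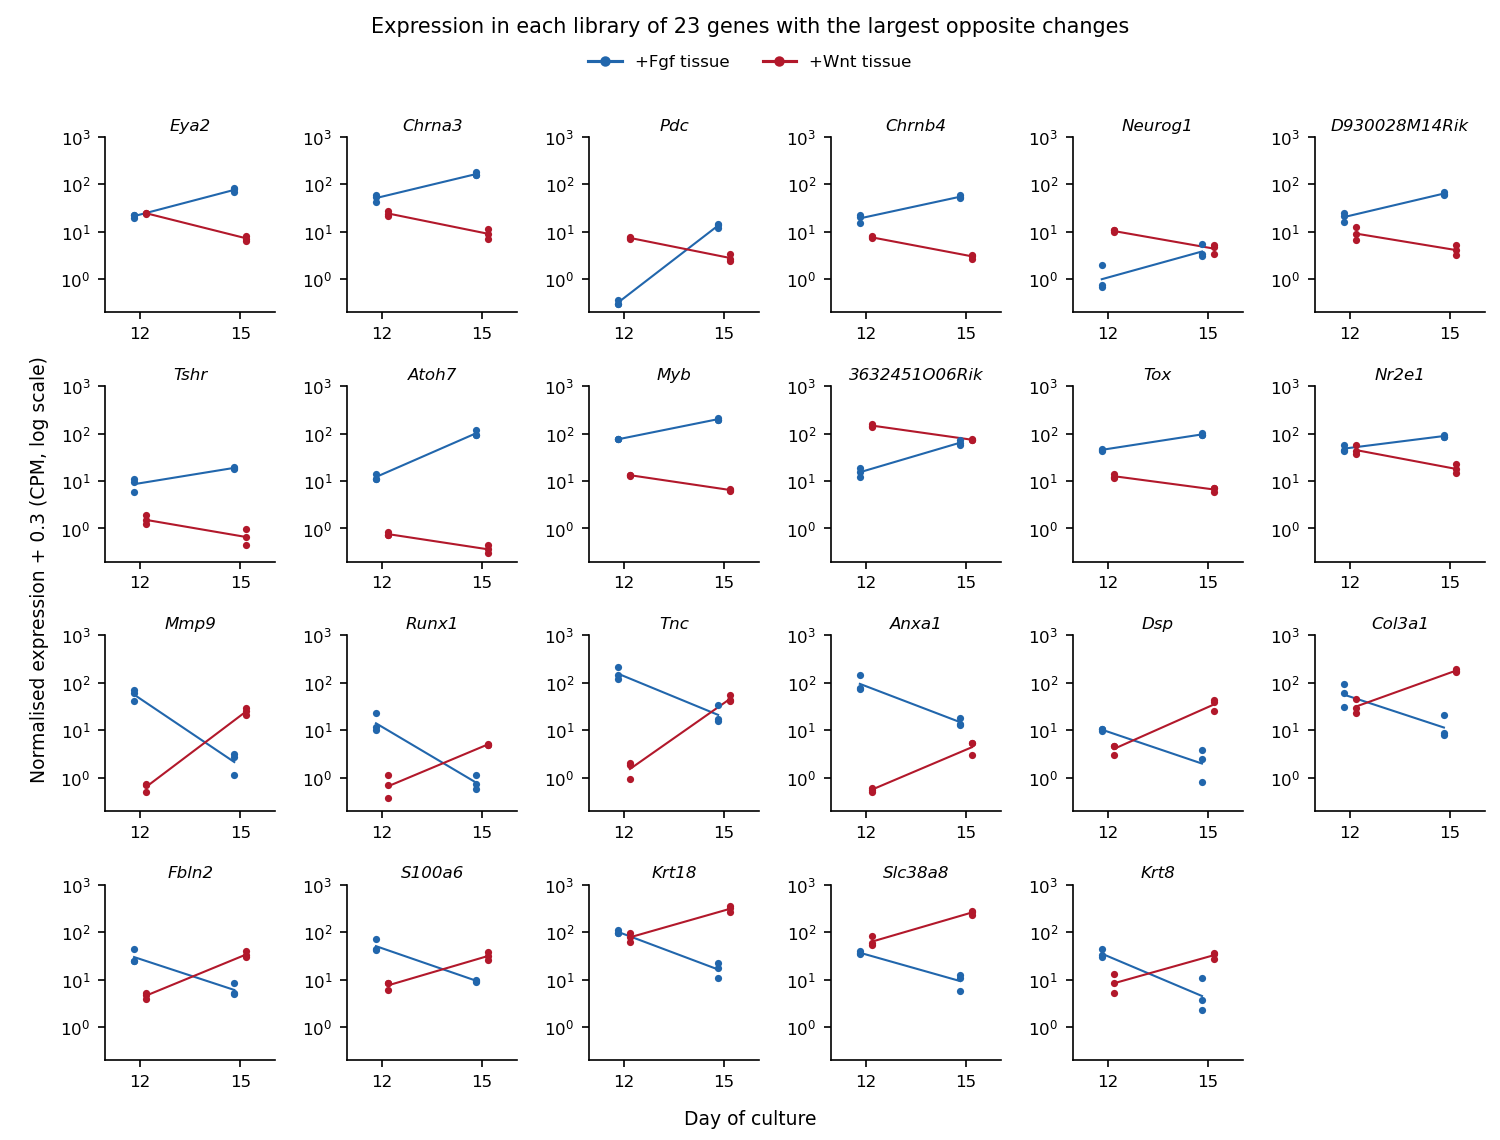
Normalised expression plus 0.3 CPM (log axis) at Day 12 and Day 15 in +Fgf tissue (blue) and +Wnt tissue (red) for 23 genes with the largest opposite changes. Points are libraries, 3 per group, and lines join the group means on the log2 scale. The upper 12 panels rise in blue and fall in red, the lower 11 do the reverse, and no panel has overlapping days within a tissue.

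Mmp9 (chr2:164940780-164955850, plus strand), a gelatinase that cuts matrix proteins, had the largest difference among the 114 named genes. In +Fgf tissue it fell from 69.0, 41.4 and 62.2 to 2.43, 0.824 and 2.90 CPM. In +Wnt tissue it rose from 0.440, 0.209 and 0.397 to 29.7, 25.4 and 20.3 CPM. The order of the tissues was exchanged, with no overlap on either day. Its log2 changes were -4.72 ± 0.31 in +Fgf and 5.29 ± 0.31 in +Wnt tissue (SE), and the difference was -10.02 ± 0.44 (SE, adjusted p = 9.54e-11).

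Tnc (chr4:63959785-64047015, minus strand) encodes tenascin C, a matrix protein of remodelling tissue. It fell from 147, 121 and 212 to 15.6, 17.0 and 34.0 CPM in +Fgf and rose from 0.629, 1.60 and 1.72 to 54.2, 41.5 and 42.8 CPM in +Wnt tissue. Fbln2, the matrix protein fibulin 2, fell from 24.0, 24.9 and 42.9 to 4.94, 4.74 and 8.06 CPM and rose from 4.91, 3.62 and 4.43 to 39.1, 29.4 and 33.0 CPM. Both genes were higher in +Fgf tissue at Day 12 and higher in +Wnt tissue at Day 15. The fibrillar collagen Col3a1 varied more, at 59.5, 95.7 and 31.4 and then 8.63, 7.55 and 21.0 CPM in +Fgf tissue and at 22.8, 29.2 and 45.5 and then 180.4, 166 and 196 CPM in +Wnt tissue. Its Day 12 levels overlapped between the tissues, and its opposite call was lost with RIN as a covariate. The differences were -7.80 ± 0.46 for Tnc, -5.19 ± 0.34 for Fbln2 and -4.83 ± 0.53 for Col3a1 (SE), with adjusted p of 2.06e-09, 7.89e-09 and 1.51e-06.

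The keratins moved together. Krt18 fell from 96.2, 96.1 and 111 to 10.5, 22.5 and 17.4 CPM in +Fgf and rose from 95.4, 77.5 and 62.7 to 355, 262 and 321 CPM in +Wnt tissue. Krt8 fell from 32.4, 30.1 and 43.4 to 1.99, 10.3 and 3.46 CPM and rose from 12.6, 4.94 and 8.28 to 36.4, 27.0 and 34.6 CPM. At Day 15 each +Wnt library was above each +Fgf library for both keratins. Dsp, which encodes desmoplakin and ties keratin filaments to desmosomes, fell from 10.5, 9.30 and 10.3 to 0.516, 3.57 and 2.19 CPM and rose from 4.47, 2.71 and 4.30 to 38.7, 43.5 and 24.9 CPM. Its opposite call was lost with RIN as a covariate. The differences were -4.63 ± 0.30 for Krt18, -4.94 ± 0.55 for Krt8 and -5.49 ± 0.55 for Dsp (SE), with adjusted p of 5.89e-09, 2.01e-06 and 5.37e-07.

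Calcium-binding proteins of the cell membrane were also in the second set. Anxa1, an annexin, fell from 79.3, 74.7 and 144 to 17.9, 13.4 and 12.9 CPM in +Fgf tissue and rose from 0.315, 0.209 and 0.265 to 5.03, 2.76 and 4.98 CPM in +Wnt tissue. It stayed the higher in +Fgf tissue on both days. S100a6, a small EF-hand protein, fell from 43.3, 41.7 and 70.5 to 9.14, 9.68 and 8.62 CPM and rose from 8.24, 8.0 and 5.76 to 38.2, 25.4 and 31.2 CPM, and its order was exchanged. The differences were -5.65 ± 0.43 (SE, adjusted p = 3.46e-08) for Anxa1 and -4.48 ± 0.30 (SE, adjusted p = 9.61e-09) for S100a6.

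The remaining genes of the second set were a transcription factor and a transporter. Runx1 (chr16:92601466-92826149, minus strand), known from blood formation, fell from 11.4, 9.81 and 23.1 to 0.442, 0.275 and 0.848 CPM and rose from 0.818, 0.0696 and 0.397 to 4.71, 4.70 and 4.91 CPM. Slc38a8, a glutamine transporter of the eye, fell from 36.4, 39.1 and 34.0 to 5.53, 12.3 and 10.7 CPM and rose from 80.5, 53.1 and 57.5 to 275, 234 and 271 CPM. Slc38a8 was higher in +Wnt tissue on both days. The differences were -7.10 and -4.03 (adjusted p = 2e-08 and 1.8e-08).

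The opposite call of the 23 genes was repeated in every alternative in which a gene was tested for 20 of them. Tshr, Dsp and Col3a1 lost it under 1 alternative each, RIN as a covariate. Exons of Runx1, Tnc, Dsp, Krt8, Myb and Tox overlap an exon of another gene on the opposite strand, as is the case for 25 of the 114 named genes. The kit preserved strand, but the strand setting of the counting is not given in the sources used here, so reads of such pairs may be mixed. Exons of Col3a1 overlap those of Gm47302 on its own strand.

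Outside these 23, the largest positive differences were those of Neurod4, Crx, Olig2, Cdhr1, Prdm13 and Rxrg. Neurod4, a bHLH factor of amacrine and other neurons, stood at 1.01, 1.98 and 0.767 CPM in Day 12 +Fgf and at 134, 128 and 114 CPM in Day 15 +Fgf tissue. In +Wnt tissue it went from 4.97, 4.59 and 5.69 to 2.48, 3.58 and 2.81 CPM, a fall whose call was lost without Day 12 +Wnt replicate 3 and without Day 15 +Wnt replicate 1. The rise in +Fgf tissue passed the level of +Wnt tissue in each library, and the difference was 7.15 ± 0.36 (SE, adjusted p = 3.88e-10). Crx (chr7:15865947-15879968, minus strand) rose from 1.14, 2.99 and 1.34 to 116, 97.7 and 93.8 CPM in +Fgf tissue. In +Wnt tissue it stood at 2.26, 3.13 and 3.24 and then at 2.54, 2.31 and 2.74 CPM, with overlapping days. The difference of Crx was 5.85 ± 0.34 (SE, adjusted p = 2.06e-09). Olig2, a bHLH factor of retinal progenitors, rose from 0.254, 0.892 and 0.256 to 23.5, 20.1 and 20.4 CPM in +Fgf tissue, with overlapping days in +Wnt tissue (difference 5.77). Cdhr1, a protocadherin of photoreceptors, rose from 0.444, 0.382 and 0.383 to 44.3, 40.0 and 35 CPM in +Fgf tissue and stood at 4.91, 4.04 and 6.29 and then 4.71, 6.49 and 5.40 CPM in +Wnt tissue (difference 5.70).

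Prdm13, a zinc finger factor of amacrine cells, stood at 0, 0.0637 and 0 CPM in Day 12 +Fgf libraries, 1 read at most, and at 17.0, 12.1 and 10.9 CPM at Day 15. This is a rise of at least 69.8-fold against a floor of 3 reads, and in +Wnt tissue no library exceeded 0.447 CPM. Rxrg, the retinoid X receptor gamma of cone precursors, reached its difference of 4.5 ± 0.23 (SE, adjusted p = 5.64e-10) through the +Wnt tissue. There it fell from 48.7, 61.0 and 46.2 to 3.97, 2.91 and 3.30 CPM, while in +Fgf tissue it went from 4.06, 4.59 and 2.88 to 6.86, 6.59 and 5.30 CPM. The rise in +Fgf tissue was small, and the opposite call was lost with quantile normalization and with RIN as a covariate.

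The largest negative differences outside the 23 were those of Spp1, Emp1, Bgn, Col1a1, Lum and Cd44. Spp1 (chr5:104435118-104441050, plus strand), which encodes osteopontin, fell from 434, 293 and 869.9 to 12.6, 11.5 and 18.9 CPM in +Fgf tissue and rose from 22.3, 14.0 and 12.4 to 80.8, 53.3 and 52.2 CPM in +Wnt tissue. Its Day 12 +Fgf libraries spread widely, but the lowest of them was still far above each of the other libraries, and the difference was -7.0 ± 0.45 (SE, adjusted p = 5.83e-09). Emp1 fell from 8.18, 10.5 and 9.77 to 2.65, 1.92 and 6.78 CPM and rose from 0.315, 0.139 and 0.728 to 19.3, 18.6 and 22.0 CPM. Cd44, the hyaluronan receptor, fell from 15.6, 17.3 and 19.3 to 6.12, 6.18 and 9.33 CPM and rose from 7.86, 6.82 and 6.82 to 92.4, 78.0 and 88.3 CPM. Days did not overlap for Emp1 or Cd44 in either tissue. Their differences were -6.39 ± 0.49 (SE, adjusted p = 3.24e-08) and -4.79 ± 0.20 (SE, adjusted p = 5.75e-11).

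A collagen I chain and a pair of small proteoglycans made up the rest. Col1a1 fell from 20.4, 30.9 and 20.4 to 10.6, 7.69 and 11.9 CPM in +Fgf tissue and rose from 2.77, 2.71 and 3.71 to 70.5, 46.5 and 67.5 CPM in +Wnt tissue. Bgn (biglycan) fell from 10.7, 11.3 and 8.43 to 5.24, 2.47 and 5.37 CPM and rose from 0.189, 0.348 and 0.596 to 13.5, 9.92 and 18.7 CPM. The opposite calls of Emp1, Col1a1 and Bgn were lost with RIN as a covariate, while their differences kept their calls. Lum (lumican) had overlapping days in +Fgf tissue, at 8.30, 24.4 and 0.703 and then 0.516, 0.824 and 2.83 CPM, and rose in +Wnt tissue from 3.58, 5.36 and 8.87 to 52.4, 42.2 and 60.5 CPM. The differences were -5.40 ± 0.34 for Col1a1, -5.63 ± 0.41 for Bgn and -5.20 ± 1.10 for Lum (SE). That of Lum shrank to -2.64 with RIN as a covariate and no longer passed the test.

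Genes were then grouped in 20 lists by function and 6 lists of markers of other cell types. The 20 lists by function hold 573 tested genes. Among them are 26 of the 412 genes that rose in +Fgf and fell in +Wnt tissue and 82 of the 650 with the reverse. Counts below are of tested members past the threshold of the difference and are read against 27% positive and 20.9% negative over all genes. Counts from the fit with RIN as a covariate are read against 2181 positive and 1661 negative differences among the 13845 genes in that fit. Opposite calls are read against 2.98% of all genes that rose in +Fgf and fell in +Wnt tissue and 4.69% with the reverse. For each list, the median change in each tissue is given as well, on the log2 scale.

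**Figure D4:**
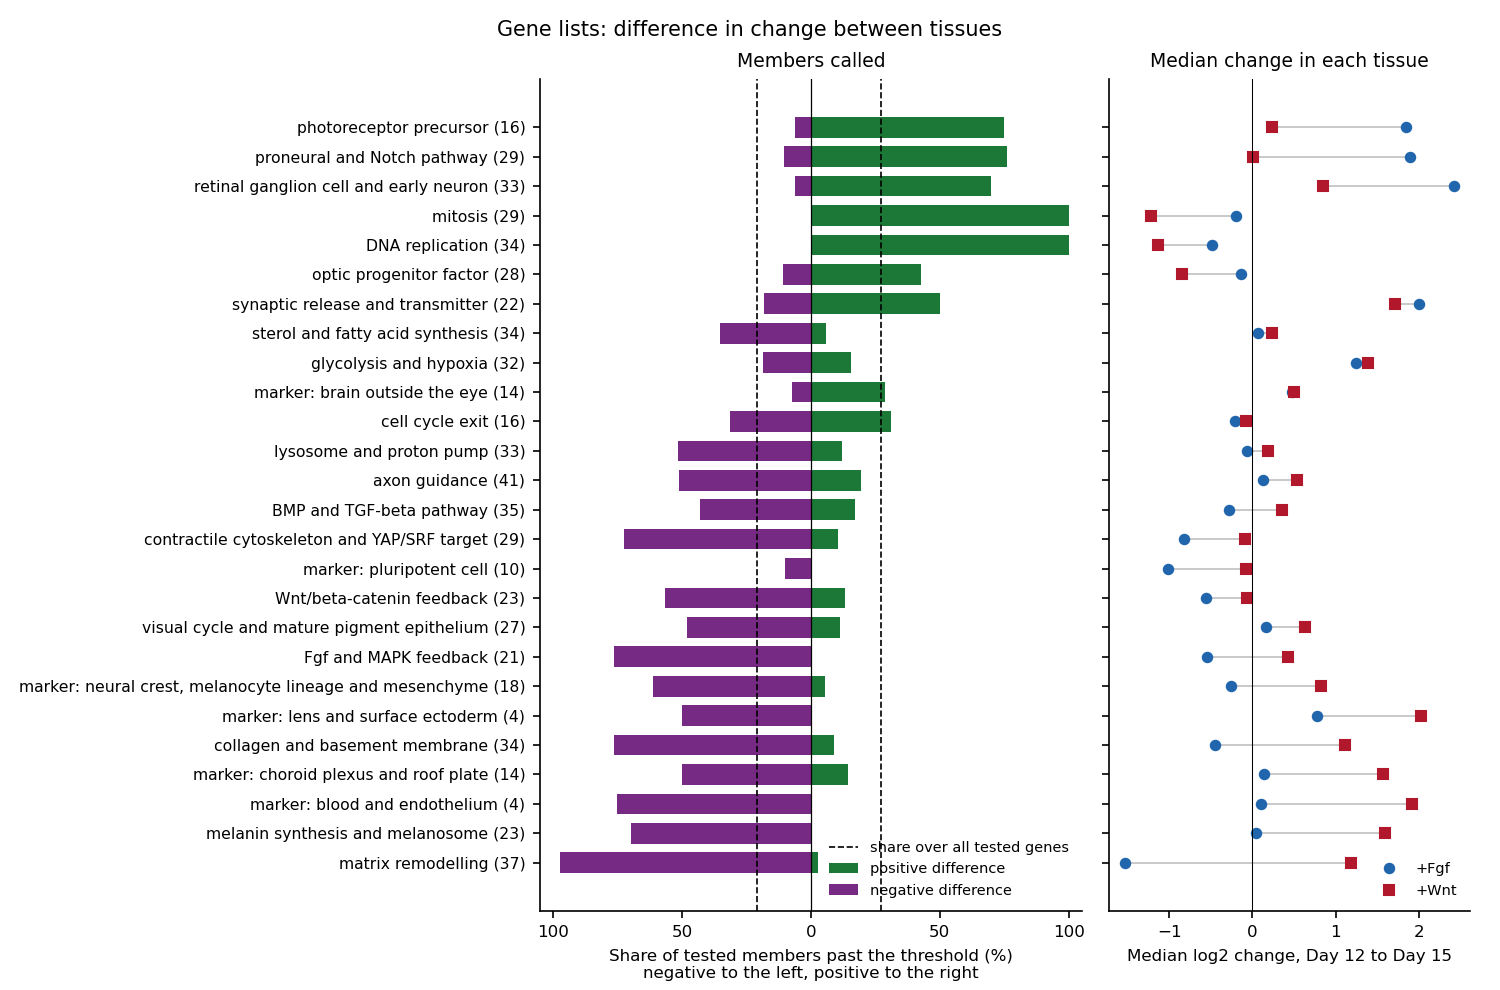
Left, the share of tested members of each list (number in brackets) with a positive difference (green, to the right) or a negative difference (purple, to the left), with dashed lines at 27% and 20.9%, the shares over all tested genes. Right, the median log2 change of each list in +Fgf tissue (circles) and +Wnt tissue (squares). Mitosis and DNA replication reach 100% on the positive side, and matrix remodelling is nearest to 100% on the negative side.

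Proneural factors and the Notch pathway differed mostly in the positive direction, for 22 of 29 members against 3 negative. Their median change was 1.89 in +Fgf and 0.01 in +Wnt tissue, and 24 members rose in +Fgf tissue. Hes5, an effector of Notch signalling, rose from 20.8, 27.3 and 21.9 to 176, 148 and 167 CPM in +Fgf and fell from 45.5, 49.6 and 42.1 to 35.3, 38.3 and 38.7 CPM in +Wnt tissue. Among the ligands, Dll1 and Dll3 moved as Hes5 did, with differences of 1.96 and 3.08, and so did the modifier Mfng (2.44) and the factors Insm1 (2.52) and Foxn4 (2.18), although Foxn4 did not exceed 1 CPM in +Wnt tissue. The opposite call was made in 13 of 23 alternatives for Hes5, 14 for Dll1, 20 for Dll3 and 21 for Foxn4, and lost in edgeR for Hes5, Dll1 and Foxn4. It was lost for Hes5, Dll1 and Dll3 without Day 12 +Wnt replicate 1 or Day 15 +Wnt replicate 1, for Hes5 also without Day 12 +Wnt replicate 2 or Day 15 +Wnt replicate 2 or 3, for Dll1 without Day 12 +Wnt replicate 2 or 3, and for Dll3 without Day 15 +Wnt replicate 2.

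The ligand Jag1 went the other way. It fell from 184, 195 and 249.7 to 21.5, 19.6 and 20.5 CPM in +Fgf tissue and rose from 22.8, 21.9 and 23.0 to 28.7, 31.2 and 27.4 CPM in +Wnt tissue. The fall brought Jag1 from far above the +Wnt level to below it, and the difference was -3.68 ± 0.13 (SE, adjusted p = 1.64e-11). The receptor Notch2 had a smaller difference in the same direction (-0.93, opposite in 20 of 23 alternatives and not without Day 12 +Wnt replicate 2 or Day 15 +Wnt replicate 1 or 2), and Notch1 one in the other (1.18).

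Retinal ganglion cell and early neuron genes had a positive difference for 23 of 33 tested members and a negative one for 2. Here the median change was positive in both tissues, 2.42 in +Fgf and 0.84 in +Wnt, and 29 members rose in +Fgf and 23 in +Wnt tissue. Sncg, gamma-synuclein of ganglion cells, rose from 2.47, 1.66 and 2.17 to 119, 112 and 95.8 CPM in +Fgf and from 0.629, 0.278 and 1.19 to 1.61, 2.31 and 2.31 CPM in +Wnt tissue (difference 4.18, adjusted p = 2.29e-07). The neurofilament genes Nefl and Nefm rose in both tissues with differences of 3.02 and 2.95. Pou4f2, the ganglion cell factor, stood at 14.0, 8.47 and 15.5 and then 87.3, 77.9 and 81.0 CPM in +Fgf tissue, and at 0.0629, 0.0696 and 0.265 and then 0.620, 1.94 and 2.03 CPM in +Wnt tissue. Pou4f2 rose in both tissues, and its difference of 0.72 ± 0.45 (SE, adjusted p = 0.202) did not pass the test. Its +Wnt levels rest on few reads, and the difference was -0.75 in edgeR, also not past the threshold. Elavl2, a neuronal RNA-binding protein, moved against the list, with a fall in +Fgf and a rise in +Wnt tissue (difference -1.43), and its opposite call was lost with RIN as a covariate and without Day 12 +Fgf replicate 3. Isl1, a LIM factor of ganglion cells, rose from 26.1, 15.6 and 30.4 to 117, 111 and 98.3 CPM in +Fgf tissue and fell from 0.944, 1.46 and 2.19 to 1.05, 0.597 and 0.281 CPM in +Wnt tissue, where its days overlapped (difference 3.2). The opposite call of Isl1 was lost with RIN as a covariate, in edgeR and without Day 12 or Day 15 +Wnt replicate 3.

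Photoreceptor precursor genes had a positive difference for 12 of 16 tested members and a negative one for 1, Cngb3. Of the 25 listed, 9 were below the filter, among them Rcvrn and Opn1sw, which did not exceed 0.128 and 0.447 CPM. The 12 include Prdm13, whose known role is in amacrine cells. Thrb, Rxrg, Rorb and Casz1 rose in +Fgf and fell in +Wnt tissue, and for Casz1 the opposite call was lost with RIN as a covariate. Rorb, a nuclear receptor of photoreceptor precursors, rose from 85.8, 71.7 and 87.0 to 250.1, 224 and 199.8 CPM and fell from 21.6, 23.7 and 21.9 to 13.2, 13.8 and 11.1 CPM. Prdm1, which favours photoreceptors over bipolar cells, rose in both tissues, to 61.0, 48.6 and 49.1 CPM in +Fgf and to 1.80, 3.06 and 2.46 CPM in +Wnt tissue at Day 15 (difference 4.40).

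Synaptic release genes showed less of a difference, with 11 of 22 tested members positive and 4 negative. All 22 rose in +Fgf tissue and 21 in +Wnt tissue, with medians of 2.00 and 1.71. Cplx1, a complexin of vesicle fusion, rose from 0.254, 0.764 and 0.383 to 13.5, 12.5 and 11.6 CPM in +Fgf and from 1.95, 3.69 and 4.04 to 9.06, 9.02 and 13.7 CPM in +Wnt tissue, and reached similar levels at Day 15. Sv2a, a synaptic vesicle protein, rose from 13.2, 11.2 and 14.4 to 19.8, 23.1 and 25.0 CPM and from 9.37, 10.6 and 11.1 to 73.5, 60.1 and 62.4 CPM, so that the larger rise was in +Wnt tissue. Their differences were 2.46 and -1.83.

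Optic progenitor factors had a positive difference for 12 of 28 tested members and a negative one for 3. In +Wnt tissue 21 fell, with a median of -0.85, and in +Fgf tissue 8 fell and 7 rose, with a median of -0.14. Rax, the eye field factor behind the GFP reporter, rose from 209, 226 and 230.3 to 343, 287 and 305 CPM in +Fgf tissue and fell from 43.0, 51.1 and 39.9 to 5.83, 5.15 and 5.26 CPM in +Wnt tissue. Six3, a further eye field factor, moved as Rax did, from 212, 187 and 230.2 to 321, 307 and 273 CPM and from 79.6, 74.6 and 66.2 to 30.3, 28.6 and 29.5 CPM. Six6 fell in both tissues, from 335, 287 and 329 to 232, 216 and 226 CPM in +Fgf and from 29.4, 31.8 and 26.6 to 1.49, 2.16 and 1.12 CPM in +Wnt tissue. No days overlapped for Rax, Six3 or Six6, and the differences were 3.46 ± 0.12, 1.82 ± 0.12 and 3.51 ± 0.19 (SE). Rax and Six3 lost their opposite call with RIN as a covariate, with differences of 3.11 and 1.63.

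The receptor Fzd5 fell in +Wnt tissue from 23.1, 24.8 and 24.0 to 4.09, 4.03 and 5.68 CPM, and in +Fgf tissue it stood at 244, 184 and 244 and then 278, 255 and 244 CPM (difference 2.54). Vax2, a factor of ventral eye, fell in +Wnt tissue from 22.4, 23.0 and 28.0 to 2.92, 2.91 and 3.65 CPM, while its days overlapped in +Fgf tissue (difference 2.43, adjusted p = 1.59e-05). Lhx2, an early factor of the eye field, did not pass the test, with a difference of 0.12 ± 0.10 (SE). Otx1, a factor of anterior brain and RPE, fell in both tissues and deeper in +Fgf tissue (difference -0.94).

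All tested members of both lists of division genes differed. All 34 DNA replication genes fell in both tissues and had a positive difference, with medians of -0.49 in +Fgf and -1.14 in +Wnt tissue. All 29 mitosis genes fell in +Wnt tissue (median -1.22) and had a positive difference, while in +Fgf tissue 16 fell and 1 rose (median -0.19). The summed level of the mitosis list was 5390 to 5930 CPM in Day 12 +Fgf, 5170 to 5300.0 CPM in Day 15 +Fgf, 4630 to 4700.0 CPM in Day 12 +Wnt and 2020 to 2110 CPM in Day 15 +Wnt libraries. With RIN as a covariate, all 29 mitosis genes and 32 of the 34 replication genes kept a positive call. Mki67, which marks dividing cells, was the gene that rose in +Fgf tissue, from 443, 438 and 403 to 519.7, 506 and 446 CPM, and it fell from 321, 285 and 310.0 to 145, 157 and 146 CPM in +Wnt tissue. Its rise in +Fgf tissue was small (0.19), and its opposite call was lost in 7 of 23 alternatives, RIN as a covariate and the omission of Day 12 +Fgf replicate 2 or 3 or Day 15 +Fgf replicate 1 or 2 among them. Top2a, the topoisomerase of mitotic chromosomes, had overlapping days in +Fgf tissue, at 816, 829 and 766 and 776, 763 and 738 CPM, and fell from 599, 573 and 558 to 225, 239 and 244 CPM in +Wnt tissue. Among replication genes, Gins1 had the largest difference (1.25 ± 0.11, SE). Its level fell from 46.5, 49.3 and 44.4 to 33.9, 38.7 and 37.8 CPM in +Fgf and from 40.0, 48.9 and 43.9 to 14.0, 15.2 and 14.0 CPM in +Wnt tissue.

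The list of cell cycle exit, which also holds cyclins that drive division, had 5 of 16 members called in each direction. Over all genes, the shares were 27% positive and 20.9% negative. Among the positive members was the cyclin Ccne2 (difference 0.99). Ccnd1, the cyclin D1 that drives retinal progenitors into S phase and is listed with the progenitor factors, rose from 509, 499 and 525 to 765, 758 and 714 CPM in +Fgf and fell from 102, 70.2 and 74.6 to 33.4, 40.3 and 53.8 CPM in +Wnt tissue (difference 1.5, adjusted p = 9.29e-06). Gadd45a, a growth arrest gene, rose from 43.3, 39.3 and 45.4 to 179.7, 164 and 149 CPM and fell from 11.8, 13.4 and 13.2 to 8.44, 8.95 and 8.49 CPM (difference 2.49, adjusted p = 3.03e-10). The inhibitor Cdkn1a fell in +Fgf tissue and rose in +Wnt tissue, with a difference of -0.65. Cdkn1c and Cdkn2b, also inhibitors of cyclin-dependent kinases, fell in +Fgf tissue, from 153, 144 and 207 to 54.2, 34.1 and 56.3 CPM and from 11.3, 7.52 and 18.7 to 1.55, 1.10 and 1.70 CPM, and had overlapping days in +Wnt tissue. Their differences were -1.58 and -2.65.

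**Figure D5:**
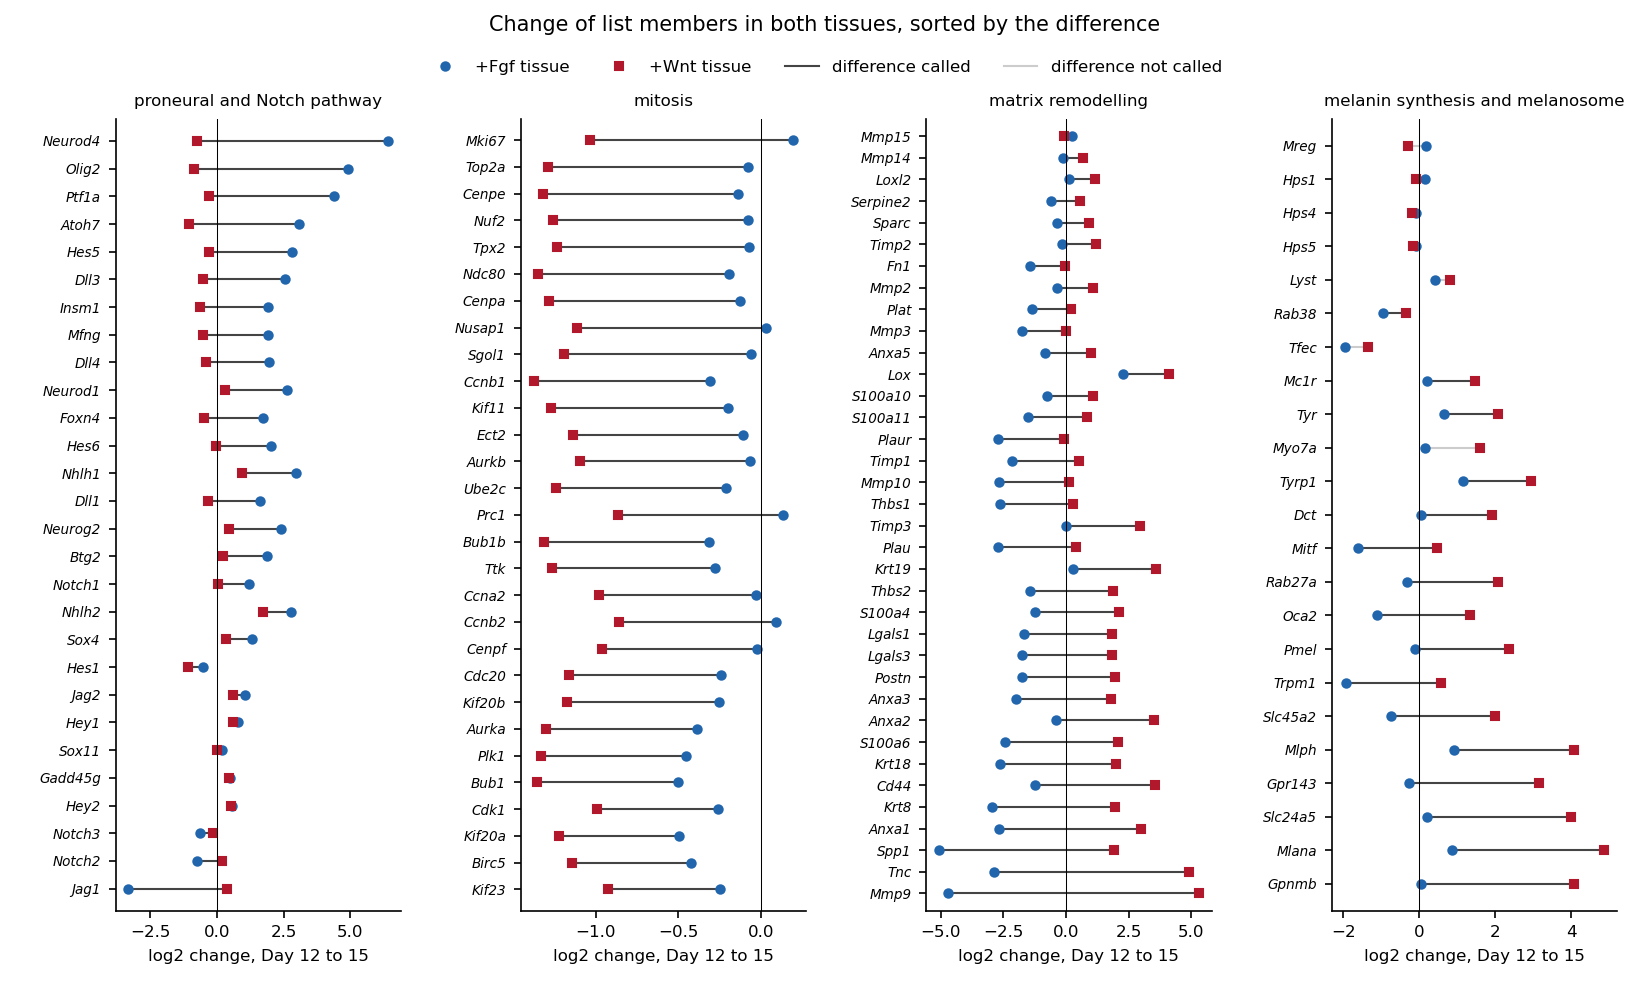
Log2 change from Day 12 to Day 15 of tested members of 4 lists (proneural and Notch pathway, mitosis, matrix remodelling, melanin) in +Fgf tissue (blue circles) and +Wnt tissue (red squares), sorted by the difference. Dark lines join the 2 changes of members whose difference passed the test, and grey lines those of the others. Mitosis genes lie near 0 in blue and near -1 in red, and most matrix remodelling genes lie below 0 in blue and above 0 in red.

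Matrix remodelling was the list with the most opposite movement. It was drawn up with earlier results of these data known and holds several of the genes ranked first above. Its shares are therefore a description and no independent evidence. Of 37 tested members, 36 had a negative difference and 1, the metalloproteinase Mmp15, a positive one. Their median change was -1.53 in +Fgf and 1.18 in +Wnt tissue, and 23 fell in +Fgf and rose in +Wnt tissue. Besides proteases, inhibitors and matrix proteins, the members that moved include the annexins Anxa1, Anxa3 and Anxa5, the S100 proteins S100a4, S100a6, S100a10 and S100a11, and Krt8 and Krt18, which act inside the cell. Lgals1, a galectin that binds matrix sugars, fell from 243, 245 and 293 to 78.6, 76.8 and 85.9 CPM in +Fgf and rose from 86.8, 89.8 and 92 to 358, 284 and 333 CPM in +Wnt tissue, with a difference of -3.54 ± 0.12 (SE, adjusted p = 1.03e-11). Postn, periostin, fell from 37.4, 54.5 and 77.2 to 13.1, 15.7 and 19.1 CPM and rose from 15.6, 13.4 and 13.7 to 57.2, 46.8 and 63.5 CPM. Days did not overlap in either tissue for Lgals1 or Postn. With RIN as a covariate 34 members had a negative call and none a positive one, since Mmp15 no longer passed (0.34, adjusted p = 0.13). Mmp2, Timp2, Thbs2 and S100a4 lost their opposite call in that fit. The opposite calls of Mmp2, Timp1 and Timp2 were also lost when single libraries were left out. For Timp1 the opposite call was made in 16 of 22 alternatives and for Timp2 in 14 of 23.

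Other members changed in +Fgf tissue and did not pass the test in +Wnt tissue. Fn1, fibronectin, fell there from 597, 471 and 751 to 257, 207 and 197 CPM and stood at 95.5, 89.8 and 103 and then 94.9, 93.3 and 93.6 CPM in +Wnt tissue. The same was found for Thbs1 and for the proteases Plat, Plau, Mmp3 and Mmp10 and the receptor Plaur, with differences from -3.12 to -1.54. Timp3, an inhibitor of metalloproteinases that is anchored in the matrix beneath the RPE, was the reverse case. It rose from 14.0, 10.2 and 13.1 to 98.2, 97.8 and 96.2 CPM in +Wnt tissue and stood at 22.6, 27.1 and 28.1 and then 20.1, 26.4 and 33.1 CPM in +Fgf tissue (difference -2.94, adjusted p = 1.13e-08).

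Collagen and basement membrane genes had a negative difference for 26 of 34 members and a positive one for 3, with medians of -0.45 in +Fgf and 1.11 in +Wnt tissue. Besides Col1a1 and Col3a1, the laminins Lama5, Lamb1 and Lamc1, both nidogens, Col4a1, Col5a2 and Col12a1 fell in +Fgf and rose in +Wnt tissue. Col4a1, Col5a2 and the nidogen Nid2 lost this call with RIN as a covariate, and Col4a1 also without Day 12 +Fgf replicate 1 or 3 or Day 15 +Fgf replicate 3. Nid1, which links laminin to collagen IV, fell from 94.8, 81.2 and 122 to 65.6, 57.8 and 49.8 CPM and rose from 9.62, 10.2 and 11.4 to 40.5, 47.4 and 39.8 CPM. Col6a1 and Col6a2 did not pass the test in +Fgf tissue and rose in +Wnt tissue, Col6a1 from 2.26, 3.27 and 5.56 to 64.1, 45.9 and 54.2 CPM (differences -3.92 and -4.28). The 3 positive members, Col9a1, Col2a1 and Col18a1, fell in both tissues and deeper in +Wnt tissue. Col9a1, a collagen of the vitreous and embryonic retina, fell from 160.2, 123 and 125 to 102, 89.3 and 108 CPM and from 127, 119 and 129.6 to 23.1, 23.2 and 24.5 CPM, with a difference of 1.95 ± 0.12 (SE, adjusted p = 3.55e-09).

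Some markers of other cell types shared the rise in +Wnt tissue with these matrix genes, but less of the fall in +Fgf tissue. Of 18 tested markers of neural crest, melanocyte lineage and mesenchyme, 11 had a negative difference and 1 a positive one. In +Wnt tissue 12 rose (median 0.83), and in +Fgf tissue 5 rose and 7 fell (median -0.26). Their summed level was 120 to 169 CPM in Day 12 +Fgf, 145 to 162 CPM in Day 15 +Fgf, 141 to 164 CPM in Day 12 +Wnt and 433 to 451 CPM in Day 15 +Wnt libraries. Prrx2, Snai1, Foxc2 and Lum were called in opposite directions, falling in +Fgf and rising in +Wnt tissue. These calls were made in 20, 18 and 15 of 22 and 16 of 23 alternatives. They were lost without Day 15 +Wnt replicate 1 for Prrx2, Snai1 and Foxc2, without Day 12 +Wnt replicate 1 for Snai1 and Foxc2, without Day 12 +Wnt replicate 2 or 3 or Day 15 +Wnt replicate 2 for Foxc2, and without Day 12 or Day 15 +Fgf replicate 1 or 2 for Lum. Dcn, decorin of connective tissue, rose from 7.17, 6.19 and 8.08 to 112, 97.5 and 122 CPM in +Wnt tissue and had overlapping days in +Fgf tissue. Among the defining genes of neural crest, Sox10 and Foxd3 were below the filter and did not exceed 3.04 and 0.495 CPM. The part of such cells in the matrix result was not tested.

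Melanin and melanosome genes had a negative difference for 16 of 23 tested members and a positive one for none. Their median change was 0.05 in +Fgf and 1.60 in +Wnt tissue and 17 members rose in +Wnt against 5 in +Fgf tissue. Gpnmb, a melanosome glycoprotein, rose from 121, 64.5 and 62.5 to 1548, 1161 and 1333 CPM in +Wnt tissue and stood at 25.3, 34.9 and 29.5 and then 26.5, 36.3 and 30.0 CPM in +Fgf tissue (difference -4.04 ± 0.32 SE, adjusted p = 4.27e-08). Tyr, the tyrosinase that starts melanin synthesis, rose in both tissues, from 164, 145 and 127 to 667, 542 and 614 CPM in +Wnt and from 13.2, 20.3 and 19.5 to 23.3, 28.7 and 30.5 CPM in +Fgf tissue (difference -1.42 ± 0.26 SE, adjusted p = 0.000242).

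Of the 23 tested members of this list, 4 were called in opposite directions, Mitf, Trpm1, Slc45a2 and Oca2. All 4 fell in +Fgf and rose in +Wnt tissue, as did 4.69% of all genes. Mitf (chr6:97807052-98021349, plus strand) fell from 56.1, 58.1 and 58.9 to 17.8, 18.3 and 19.6 CPM in +Fgf tissue and rose from 141, 134 and 119 to 191, 169 and 188 CPM in +Wnt tissue. Its log2 changes were -1.62 ± 0.07 in +Fgf and 0.47 ± 0.07 in +Wnt tissue (SE), with no overlap of days and a difference of -2.10 ± 0.11 (SE, adjusted p = 3.88e-10). Trpm1, a channel of melanocytes, fell from 278, 274 and 243 to 57.7, 80.6 and 73.1 CPM and rose from 1383, 1348 and 1241 to 2247, 1789 and 1939 CPM. Slc45a2 and Oca2, transporters of the melanosome, had differences of -2.74 and -2.43. The opposite call of Slc45a2 was lost with RIN as a covariate, in edgeR and without Day 12 +Fgf replicate 2 or 3 or Day 15 +Fgf replicate 1. The trafficking genes Hps1, Hps4 and Hps5 did not pass the test.

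Visual cycle and mature RPE genes had a negative difference for 13 of 27 tested members and a positive one for 3. Serpinf1, which encodes the pigment epithelium factor PEDF, fell from 21.4, 22.1 and 24.7 to 5.24, 4.60 and 8.62 CPM in +Fgf and rose from 4.53, 3.90 and 5.63 to 24.3, 17.8 and 24.4 CPM in +Wnt tissue. Cdh3, the P-cadherin of RPE, fell from 11.8, 13.2 and 15.7 to 5.16, 3.92 and 5.58 CPM and rose from 9.25, 8.7 and 7.08 to 38.0, 29.8 and 32.8 CPM. Stra6, the receptor that takes up retinol, moved likewise (difference -1.97). Of the 32 listed, 5 were below the filter, Rpe65, Lrat, Best1, Rgr and Slc6a20a. Lysosome and proton pump genes had a negative difference for 17 of 33 tested members and a positive one for 4, with a median of -0.33. Ctsb, cathepsin B, rose from 278, 282 and 275 to 639, 525 and 569 CPM in +Wnt tissue and had overlapping days in +Fgf tissue (difference -1.10). The pump subunits Atp6v0d1, Atp6v1b2, Atp6v1c1 and Atp6v1h made up the 4 positive members, and with RIN as a covariate none of the list was positive.

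Feedback targets of the stimulated pathways were examined next. Fgf and MAPK feedback genes had a negative difference for 16 of 21 tested members and a positive one for none. In +Fgf tissue 14 fell, with a median of -0.55, and in +Wnt tissue 12 rose, with a median of 0.43. Spry2, an inhibitor of receptor tyrosine kinase signalling, fell from 63.1, 52.1 and 70.6 to 40.9, 41.9 and 39.4 CPM in +Fgf and rose from 9.18, 9.67 and 9.0 to 20.4, 21.6 and 21.2 CPM in +Wnt tissue (difference -1.75, adjusted p = 3.1e-08). Etv4, an ETS factor induced by Fgf, fell from 49.1, 48.5 and 49.2 to 36, 32.3 and 39.1 CPM and rose from 5.09, 7.10 and 9.4 to 20.8, 21.0 and 18.8 CPM. Spry2 and Etv4 stayed the higher in +Fgf tissue on both days. The immediate early gene Egr1 fell from 26.2, 29.9 and 28.8 to 8.63, 8.31 and 9.68 CPM and rose from 5.03, 3.27 and 3.18 to 16.9, 14.0 and 14.2 CPM, and Fos moved likewise (differences -3.56 and -3.74). The opposite calls of Etv4 and Fos were lost with RIN as a covariate, and that of Etv4 also without Day 15 +Fgf replicate 2. Dusp6, a phosphatase of ERK, fell in both tissues, and its difference of -0.17 did not pass. With RIN as a covariate, 10 of the 21 had a negative call.

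Wnt/beta-catenin feedback genes had a negative difference for 13 of 23 tested members and a positive one for 3, Dkk1, Ccnd1 and Irx3. Their median change was -0.55 in +Fgf and -0.06 in +Wnt tissue. Wif1, a secreted Wnt inhibitor, fell from 32.2, 35.1 and 30.1 to 3.25, 6.73 and 12.8 CPM in +Fgf and rose from 57.5, 61.4 and 61.0 to 162, 131 and 119 CPM in +Wnt tissue (difference -3.43 ± 0.40 SE, adjusted p = 3.28e-06). Dkk1, a secreted inhibitor of the Wnt coreceptor, fell in both tissues, from 9.57, 10.1 and 15.5 to 5.09, 4.60 and 5.44 CPM and from 31.2, 28.5 and 34.1 to 2.48, 2.69 and 3.58 CPM, and deeper in +Wnt tissue (difference 2.17 ± 0.26 SE, adjusted p = 3.6e-06). Axin2, the usual readout of the pathway, had overlapping days in both tissues, at 31.2, 37.6 and 19.3 and then 10.5, 13.1 and 23.7 CPM in +Fgf and at 174, 180.3 and 199 and then 183, 182 and 164 CPM in +Wnt tissue. Its difference of -0.85 ± 0.32 (SE, adjusted p = 0.0379) turned to 0.04 with RIN as a covariate. The ligand Wnt3a and the homeobox gene Irx3 passed narrowly (differences -1.65 and 0.63, adjusted p = 0.0306 and 0.0459) and lost their calls in the same fit and when single libraries were left out. With RIN as a covariate, 6 of the 23 had a negative call and 2 a positive one.

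Contractile cytoskeleton genes and targets of YAP and SRF had a negative difference for 21 of 29 tested members and a positive one for 3. In +Fgf tissue 27 fell and none rose, with a median of -0.82, against -0.09 in +Wnt tissue. Tagln, transgelin of contractile cells, fell from 282, 273 and 393 to 42, 36.5 and 37.8 CPM in +Fgf tissue and had overlapping days in +Wnt tissue, at 3.40, 3.41 and 4.04 and then 4.78, 2.69 and 2.1 CPM. Acta2, smooth muscle actin, fell from 157, 156 and 218 to 54.0, 53.6 and 61.0 CPM and rose from 3.77, 2.58 and 2.52 to 29.3, 18.6 and 20.3 CPM. Cyr61, a target of YAP, fell in +Fgf tissue from 72.2, 69.1 and 83.4 to 15.3, 13.9 and 16.5 CPM. The differences were -2.76, -4.45 and -2.19. The 3 positive members, Anln, Amotl2 and Ajuba, fell in +Wnt tissue, and Anln encodes anillin, which acts at the cleavage furrow of dividing cells.

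BMP and TGF-beta pathway genes had a negative difference for 15 of 35 members and a positive one for 6. Tgfb1, a ligand, fell from 11.3, 9.24 and 21.1 to 1.18, 1.72 and 1.55 CPM in +Fgf tissue and rose from 0.252, 0.139 and 0.0662 to 0.744, 0.746 and 1.19 CPM in +Wnt tissue. Its +Wnt levels were low on both days, and the difference was -4.32 ± 0.39 (SE, adjusted p = 1.93e-07). The secreted antagonists Grem1, Fst and Nog and the receptors Tgfbr2 and Acvr1 also fell in +Fgf and rose in +Wnt tissue. This opposite call was lost with RIN as a covariate for Grem1, Fst, Nog and Acvr1, and that of Nog also without Day 12 +Wnt replicate 1, Day 15 +Wnt replicate 3 or Day 15 +Fgf replicate 1. Grem1 went from 8.49, 7.01 and 11.7 to 4.94, 4.67 and 4.24 CPM and from 1.32, 1.53 and 2.32 to 9.43, 10.2 and 10.4 CPM, with a difference of -3.28. The positive members had differences of at most 1.02, that of the receptor Bmpr1b.

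Axon guidance genes had a negative difference for 21 of 41 members and a positive one for 8. Sema3d and Sema3e, secreted semaphorins, fell in +Fgf tissue from 38.1, 39.9 and 59.4 to 5.31, 4.19 and 5.09 CPM and from 23.4, 24.9 and 22.6 to 2.95, 2.95 and 3.04 CPM. They rose in +Wnt tissue from 2.89, 2.71 and 3.51 to 8.87, 8.65 and 10.1 CPM and from 1.07, 0.278 and 0.596 to 3.78, 3.28 and 2.17 CPM. Plxnd1, the receptor of Sema3e, rose in +Wnt tissue from 3.27, 3.62 and 4.57 to 73.8, 74.7 and 64.8 CPM and fell in +Fgf tissue from 63.9, 52.8 and 87.7 to 48.5, 47.8 and 45.2 CPM. The netrin receptors divided. Unc5b fell from 178, 285 and 288 to 71.3, 49.1 and 54.8 CPM in +Fgf and rose from 23.5, 23.6 and 21.6 to 49.7, 54.0 and 45.9 CPM in +Wnt tissue, while Dcc, which mediates attraction, rose in both tissues and more in +Fgf tissue. The differences were -4.65 for Sema3d, -4.76 for Sema3e, -4.62 for Plxnd1, -3.19 for Unc5b and 1.67 for Dcc.

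Glycolysis and sterol synthesis had the smallest shares of called members among the 20 lists, 34.4% and 41.2%. Among 32 glycolysis and hypoxia genes, 31 rose in each tissue, with medians of 1.25 in +Fgf and 1.39 in +Wnt tissue, and the difference passed for 11, 5 positive and 6 negative. These shares are below those over all genes. Ldha, lactate dehydrogenase, rose from 722, 1220.0 and 593 to 2292, 2291 and 2621 CPM and from 1229, 561 and 937 to 2515, 2410.0 and 2512 CPM, with a difference of 0.05 ± 0.33 (SE). Slc2a1, the glucose transporter of the RPE and blood barriers, rose more in +Wnt tissue, from 702, 504 and 576 to 1956, 1773 and 2020.0 CPM, than in +Fgf tissue, from 837, 845 and 899 to 1267, 1238 and 1384 CPM (difference -1.11). Among 34 sterol and fatty acid genes, 2 had a positive and 12 a negative difference, with median changes of 0.07 in +Fgf and 0.24 in +Wnt tissue. Scd1, a desaturase, and Sc5d, of cholesterol synthesis, had the largest of these (-0.94 and -0.52), and both lost their calls with RIN as a covariate. In that fit 5 of the 34 had a positive and 3 a negative call, and the median difference turned from -0.04 to 0.10.

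The remaining markers of other cell types moved as follows. Choroid plexus and roof plate markers summed to 41.1 to 60.6 CPM in Day 12 +Fgf and 40.6 to 75.8 CPM in Day 15 +Fgf libraries. In +Wnt libraries they summed to 140 to 164 CPM at Day 12 and 239 to 283 CPM at Day 15. Of 14 tested, 7 had a negative and 2 a positive difference. These counts were 4 and 0 with a pseudocount of 0.05 CPM, and 6 and 0 with RIN as a covariate. Lens crystallins Cryba2 and Crybb1 rose in +Wnt tissue, from 0.629, 0.974 and 0.794 to 38.1, 17.3 and 23.4 CPM and from 2.26, 3.97 and 4.57 to 30.4, 19.8 and 17.3 CPM, and neither rose in +Fgf tissue by the test. Lens and surface ectoderm markers summed to 1.52 and 3.71 CPM at most at Day 12 and Day 15 in +Fgf tissue, and to 8.18 to 12.3 and 51.3 to 87.3 CPM in +Wnt tissue, with 2 of 4 tested called, both negative, and 0 of the 4 in edgeR. A further 9 of 13 were below the filter, and Foxe3, the lens factor, did not exceed 0.191 CPM. Csf1r, a receptor of macrophages, rose in +Wnt tissue from 1.76, 0.626 and 0.728 to 19.4, 19.2 and 21.8 CPM, and 3 of the 4 tested markers of blood and endothelium had a negative difference. Their sum, mostly Kdr, was 99.5 to 170.0 and then 216 to 267 CPM in +Fgf tissue and 7.17 to 10.0 and then 42.9 to 47.1 CPM in +Wnt tissue, while Cx3cr1 was at 0 in all 12 libraries and Ptprc did not exceed 0.275 CPM. In the list of brain factors, 4 of 14 tested members had a positive difference, near the 27% over all genes, and 1 a negative one. Not all members are particular to brain outside the eye, such as Pax2 (difference 2.95) and Barhl2 (2.17). The list summed to 278 to 346 CPM in Day 12 +Wnt and 503 to 604 CPM in Day 15 +Wnt libraries. In +Fgf tissue it summed to 85.7 to 118 and then 77.2 to 210.0 CPM. Of 10 tested pluripotency markers, 1 had a negative difference, and they summed to 76.6 CPM at most. The part of such cells in the differences was not tested.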

How the data were processed

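RNA was sequenced in 15 libraries, of which 12 enter the comparison. Per the paper's methods and the submitters' processing notes, the authors prepared stranded mRNA libraries (TruSeq), aligned reads to mm10 with TopHat2 2.0.8b, counted fragments per UCSC gene with Cuffdiff (Cufflinks 2.1.1), and normalised the counts with edgeR 3.2.4. The deposited signal is the TMM-normalised CPM per gene entry. Non-zero values were whole multiples of 1 read's worth within 0.02 read (100%), so whole read counts were recovered from the deposited values; intervals and floors of 3 reads cover counting error only, since PCR reads are not independent molecules.

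Genes with at least 1 CPM in at least 3 of 15 libraries were tested with limma 3.58.1 (R 4.3.3) on log2(CPM + 0.3), with 5 group means, a mean-variance trend and Benjamini-Hochberg adjustment over all genes at 0.05, two-sided. Fold changes on this scale understate those of low genes, and differences in the text are log2 values from this fit unless stated. A gene was called opposite when both tissues and the difference passed with opposite signs. Alternatives were edgeR 4.0.16 on the recovered reads, DESeq2 1.42.0 size factors, other pseudocounts and filters, quantile normalization, RIN as a covariate, a replicate block and each of the 12 libraries left out. The tests were also run on simulated data. There, a small set of genes changed, in Day 15 +Fgf only, and all genes had the same dispersion. The data here differ from that setting, so no conclusion is drawn from it.

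Genes were named by rule: the 12 largest opposite changes per direction (by the smaller change, at least 10 CPM, days not overlapping), the 6 largest other differences per sign, up to 2 called members per list and sign, and 13 genes chosen by name. Some of these genes are not reported here. Other list members are given as examples and were chosen after their values were seen. The comparison, the lists and the rule were chosen with earlier results of these data known. The 2 contrasts share no library. P-values measure the spread between replicates of 1 cell line.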

Additional observations from a re-analysis of the deposited data

Results flagged for a closer look

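The difference between the tissues was tested for each gene, and the results below passed that test. It passed for 6636 genes, of which 412 rose in +Fgf and fell in +Wnt tissue and 650 did the reverse.

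Among the genes named by size, the positive differences (log2) were 3.60 for Eya2, 3.11 for Chrna3, 6.81 for Pdc, 2.84 for Chrnb4, 3.17 for Neurog1, 2.81 for D930028M14Rik, 2.34 for Tshr, 4.13 for Atoh7, 2.45 for Myb, 3.06 for 3632451O06Rik, 2.02 for Tox and 2.20 for Nr2e1, all called in opposite directions. Outside these they were 7.15 for Neurod4, 5.85 for Crx, 5.77 for Olig2, 5.70 for Cdhr1, 5.10 for Prdm13 and 4.5 for Rxrg. The negative differences were -10.02 for Mmp9, -7.10 for Runx1, -7.80 for Tnc, -5.65 for Anxa1, -5.49 for Dsp, -4.83 for Col3a1, -5.19 for Fbln2, -4.48 for S100a6, -4.63 for Krt18, -4.03 for Slc38a8 and -4.94 for Krt8, all called in opposite directions, and outside these -7.0 for Spp1, -6.39 for Emp1, -5.63 for Bgn, -5.40 for Col1a1, -5.20 for Lum and -4.79 for Cd44. In Day 12 +Fgf tissue, replicate 3 was the highest of the 3 libraries for Spp1, Tnc, Anxa1, Runx1, Fbln2 and S100a6. Without that library, each of these genes kept its call in the difference.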

How the results depend on the processing

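The number of differing genes stayed within 1.5 times 6636 under each alternative except RIN as a covariate, which gave 3842, with 157 and 333 genes called in opposite directions in place of 412 and 650. RIN moves with day in +Fgf tissue, and the cause was not tested. A pseudocount of 1 CPM left 80 opposite genes with at least 1 in each tissue, and a filter of 10 CPM in 3 libraries left 74 of these and 1182 differences of at least 1, since fewer low genes were tested. The direction with rises in +Fgf tissue had 6 such genes with a pseudocount of 1 CPM and 41 with quantile normalization, against 11.

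With single libraries left out, where the pair that remains is assumed to vary like the other groups, 6007 to 6366 genes differed, 1859 to 2046 by at least 1. Opposite calls were 340 to 390 and 581 to 638, and 117 to 139 with at least 1 in each tissue. Positive differences made up 56.3% of calls, 52.6% with edgeR (6236 genes) and 62.1% with the filter of 10 CPM.

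With replicate number as a block, 6555 genes differed, 391 and 641 of them in opposite directions, and the block ended no call of a named gene. Deviations of libraries with the same number had correlations of -0.25 to 0.22 (median -0.02), so the numbers were not taken as pairs.

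Of 112 named genes past the threshold, 92 kept their call under each alternative in which they were tested (4 of the named genes were tested in 22 of 23) and 19 lost it with RIN as a covariate, namely Lum, Cngb3, Syt1, Trpm3, Atp6v0d1, Atp6v1h, Mmp15, Srebf2, Scd1, Sc5d, Aldoc, Sostdc1, Tfap2b, Kdr, Crybb1, Lhx5, Axin2, Wnt3a and Irx3. Axin2 turned to 0.0372 (adjusted p = 0.964) there. Sostdc1, Axin2, Wnt3a, Irx3 and Srebf2 also lost their calls without 1 library or more. In edgeR the fitted differences of Pdc and Prdm13 were 10.24 and 7.92, and those of Cngb3, Crybb1 and Cryba2 were -0.77, -0.67 and -4.96, none past the threshold. Of 127 list members and named genes called in opposite directions, 65 kept that call wherever they were tested, 48 lost it with RIN as a covariate and 40 under another alternative. Without Day 12 +Fgf replicate 2 that of Lhx5 was -1.21, and with RIN as a covariate that of Bmpr1b was 2.00. Low genes are limited by depth, since 1 read is worth at least 0.0620 CPM.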
